A study of Ciona robusta with 6 samples.

Results

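Of the 15232 KH gene models counted in cells sorted from Ciona robusta embryos, 30 were low in both control libraries and higher in both libraries of cells that overexpressed Neurog. The members were taken by level alone. A gene model had to be under 1 CPM (the gene's count scaled to a library total of 1000000) in both lacZ libraries and at 2 CPM or more in both Neurog libraries. Of all gene models, 3033 met the lacZ limit, and the 30 members are 0.989% of these. These CPM values chose the members, so the difference between lacZ and Neurog is given for them as a description, without a test. KH.L66.3 stood highest, at 17.9 and 31.0 CPM in the Neurog libraries, 18 of the 30 had a Neurog mean under 5 CPM, and 21 of the 30 were under 1 CPM in both libraries of a repressor form of Neurog, as were 90.4% of the 3033.

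Embryos were electroporated as pools with 2 plasmids and were raised at 20 °C to 9.5 hours post-fertilization (hpf), when cells were sorted for a fluorescent reporter (tagRFP or tagBFP) without removing any other lineage by a second marker. In all 3 groups the Neurog promoter fragment that is active in the bipolar tail neuron (BTN) lineage drove both the reporter and the second plasmid, which carried lacZ (the Neurog>lacZ control), Neurog (Neurog>Neurog) or a fusion of Neurog to a WRPW peptide (Neurog>Neurog:WRPW). The groups, called lacZ, Neurog and Neurog:WRPW here, had 2 libraries each, which the study describes as biologically independent, and the labels name no batch. A promoter of this kind can also be active outside the BTNs, plasmids are taken up by some cells of an embryo and not by others, and Neurog:WRPW replicate 2 was made from the fewest sorted cells.

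Neurogenin (Neurog) is a basic helix-loop-helix transcription factor of the proneural class, which binds short E-box motifs and turns on neuronal genes in committed precursors. WRPW is the short peptide by which Hairy-type factors recruit the co-repressor Groucho, so that a WRPW fusion is used to repress the genes an activator would otherwise turn on. BTNs are sensory neurons of the Ciona tail that arise at the border of the neural plate, migrate along the tail and extend their processes in opposite directions.

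Of the 30 members, 3 had been given an in situ hybridization probe in the study. None of the 3 was among the 48 genes counted here with a probe scored in BTNs, or the 15 scored elsewhere in the nervous system. The study scored KH.C8.471 and KH.S2542.2 in other tissues, and KH.C1.236 was in none of these groups. The start of each synthetic template is shown with that of KH.S2542.1, since the overlap of the KH.S2542 pair bears on how its counts can be read. KH.S2542.2 is a member, and KH.S2542.1 is a gene model with the next number on the same scaffold that missed the lacZ limit. Capitals mark the bases shared by the templates of KH.S2542.2 and KH.S2542.1 when 1 of the pair is read as its reverse complement, and the ATG at the start of the KH.C8.471 template. No base of KH.C1.236 is marked.
KH.S2542.2: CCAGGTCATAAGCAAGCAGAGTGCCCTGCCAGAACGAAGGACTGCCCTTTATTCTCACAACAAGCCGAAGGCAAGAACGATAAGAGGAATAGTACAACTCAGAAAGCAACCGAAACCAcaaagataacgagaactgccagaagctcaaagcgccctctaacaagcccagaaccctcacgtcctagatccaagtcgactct
KH.S2542.1: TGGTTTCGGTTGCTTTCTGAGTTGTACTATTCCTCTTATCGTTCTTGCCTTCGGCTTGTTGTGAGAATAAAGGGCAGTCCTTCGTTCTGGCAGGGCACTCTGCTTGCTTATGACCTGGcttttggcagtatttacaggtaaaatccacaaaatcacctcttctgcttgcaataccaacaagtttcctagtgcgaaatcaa
KH.C8.471: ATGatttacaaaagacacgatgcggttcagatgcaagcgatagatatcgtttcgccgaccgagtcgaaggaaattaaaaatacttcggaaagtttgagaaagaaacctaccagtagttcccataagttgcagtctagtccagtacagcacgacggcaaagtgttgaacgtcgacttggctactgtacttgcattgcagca
KH.C1.236: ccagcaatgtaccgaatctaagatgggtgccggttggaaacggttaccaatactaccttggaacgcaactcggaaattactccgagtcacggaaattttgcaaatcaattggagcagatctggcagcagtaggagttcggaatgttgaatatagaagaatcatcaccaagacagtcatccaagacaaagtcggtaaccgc
Each line gives the first 200 of the 399 bases read here. The first 118 bases of the KH.S2542.2 template are the reverse complement of the first 118 bases of the KH.S2542.1 template, without a mismatch. Against the other templates among the 132 compared, the longest run shared by any of the 3 members in either orientation was 13 bases. The templates of the KH.S2542 pair are thus written on opposite strands of the same DNA. No source used here says whether strand was used in counting, so reads from the shared stretch cannot be told apart between KH.S2542.2 and KH.S2542.1. The KH.C8.471 template has no stop codon in a single frame over all 399 bases and that of KH.C1.236 over 396 bases, whereas the longest such run in KH.S2542.2 on the printed strand was 240 bases.

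The library totals lay between 10315548 counts in Neurog:WRPW replicate 2 and 24499397 counts in lacZ replicate 2. A value of 1 CPM was worth 17.0 counts in lacZ replicate 1 and 24.5 in lacZ replicate 2, and 2 CPM was worth 34.6 and 31.6 counts in the Neurog libraries. Neurog:WRPW replicate 2 held at least 1 count for 13009 gene models, against 14291 to 14497 in the other 5 libraries. By counting error alone, a gene at 0 there could still lie at up to 0.291 CPM (3 counts). That bound does not cover transcripts missed before sequencing in a library made from few sorted cells. The BTN gene VAChT (KH.C1.498) was at 15.7 CPM in Neurog:WRPW replicate 1 and at 0 in replicate 2. Neurog itself (KH.C6.129) was at 95.4 and 124.6 CPM in lacZ, 4180.3 and 4479.5 CPM in Neurog and 105.5 and 166.0 CPM in Neurog:WRPW. Reads from the plasmids can be included. Although the Neurog:WRPW plasmid also carries Neurog, that group was close to lacZ (log2 fold change 0.42 ± 0.35 SE). The reason was not tested. The BTN genes Asic, GAD, VAChT, Onecut, Dcx, Cdk5r and alpha-Tubulin summed to 2888.2 and 1500.4 CPM in lacZ, 13068.3 and 7752.7 CPM in Neurog and 1136.8 and 694.9 CPM in Neurog:WRPW, and of the 7 VAChT was at 0 in Neurog:WRPW replicate 2. Most of each sum was alpha-Tubulin (KH.C8.892), and the other 6 summed to 501.7 and 217.4, 2595.3 and 1441.0, and 161.7 and 59.4 CPM in the same groups. In bulk samples like these, fewer cells of a type and less RNA per cell cannot be told apart.

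The word silent does not describe the members literally. No member was at 0 counts in both lacZ libraries, although 426 of the 3033 gene models under the lacZ limit were. Over both lacZ libraries together the members had 1 to 33 counts, with a median of 22.0, and 25 of the 30 had 10 or more. The member median was 0.559 CPM in lacZ replicate 1 and 0.510 CPM in lacZ replicate 2, against 0.177 and 0.122 CPM for the median of the 3033, so the members lay above the typical gene model under the limit. In the Neurog libraries their medians were 4.13 and 3.98 CPM, where the median of the 3033 was at 0.173 and 0.126 CPM.

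**Figure D1:**
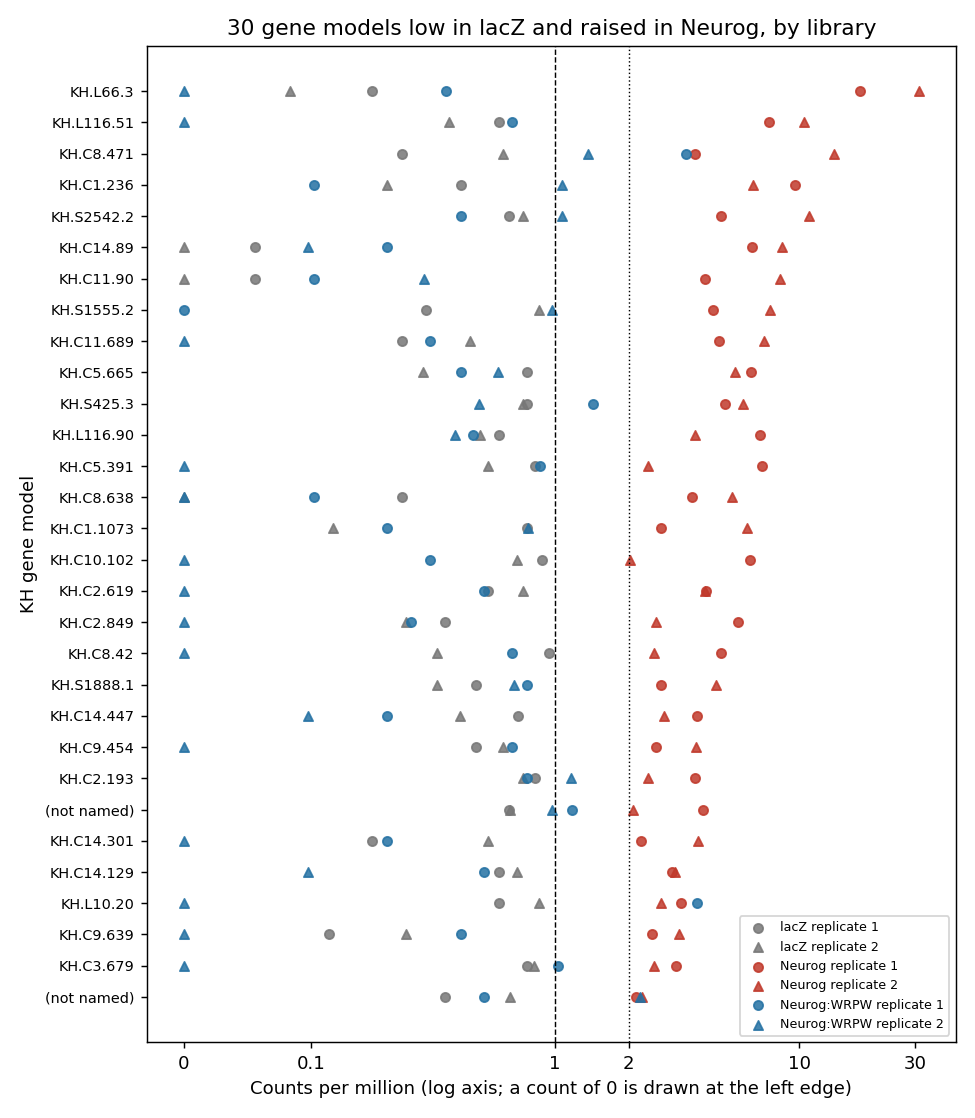
CPM (log axis, 0 drawn at the left edge) of the 30 gene models in each of the 6 libraries, sorted by their Neurog mean; circles are replicate 1, triangles replicate 2, and the dashed and dotted lines are the limits of 1 and 2 CPM. The Neurog libraries (red) lie right of the lines by the rule, and the Neurog:WRPW libraries (blue) fall among the lacZ libraries (grey) for most members, with KH.C8.471 and KH.L10.20 among the 3 that pass 2 CPM in 1 library.

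The highest member by far was KH.L66.3, a short gene model of 493 bases with no name in the sources used here. It was at 0.177 and 0.0816 CPM in lacZ (3 and 2 counts), 17.9 and 31.0 CPM in Neurog (309 and 490 counts) and 0.358 and 0 CPM in Neurog:WRPW. Both Neurog libraries stood far above the other 4, which overlapped each other. Per length it was also highest, at 49.6 CPM per kilobase in Neurog, where KH.C5.665, the next by this scale, was at 13.7 and KH.S2542.2 at 10.5. Its LogFC (log2 fold change from the fit across all genes) between Neurog and lacZ was 7.40 ± 0.97 (SE).

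KH.C14.89 and KH.C11.90, also without a name, came closest to being absent from the control. KH.C14.89 had 1 and 0 counts in lacZ, 111 and 135 counts in Neurog (6.42 and 8.54 CPM) and 4 and 1 counts in Neurog:WRPW (0.204 and 0.0969 CPM). KH.C11.90 likewise had 1 and 0 counts in lacZ, 71 and 132 in Neurog (4.10 and 8.35 CPM) and 2 and 3 in Neurog:WRPW (0.102 and 0.291 CPM). For both, every library outside the Neurog group was at 4 counts or fewer. The lacZ counts of 0 were in replicate 2, which the study made from fewer sorted cells than replicate 1, so transcripts can have been missed there. With a single lacZ count the size of the difference is poorly bounded. The ratio of pooled CPM between Neurog and lacZ was 308.3 for KH.C14.89, with an exact 95% interval of 54.8 to 12225.1 that covers counting error only, and 254.4 for KH.C11.90, with an interval of 45.2 to 10096.7. The same counts chose these genes, and the intervals do not allow for that choice. KH.C8.638 (4 and 0 counts in lacZ, 63 and 84 in Neurog, 2 and 0 in Neurog:WRPW) was the only other member of the 30 with fewer than 5 lacZ counts.

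Neurog means of 5 to 9 CPM were measured for 11 members, KH.C14.89 and KH.C11.90 among them. KH.L116.51 was at 0.589 and 0.367 CPM in lacZ, 7.52 and 10.4 CPM in Neurog and 0.664 and 0 CPM in Neurog:WRPW, and KH.L116.90, which has the same scaffold in its name, was at 0.589 and 0.490, 6.94 and 3.73, and 0.460 and 0.388 CPM. The members of the pair were raised in both Neurog libraries but ordered them differently, KH.L116.51 being higher in replicate 2 and KH.L116.90 in replicate 1. KH.C11.689 (4.68 and 7.21 CPM in Neurog) and KH.C5.665 (6.36 and 5.44 CPM) were at most at 0.449 and 0.765 CPM in a lacZ library and at most at 0.307 and 0.582 CPM in a Neurog:WRPW library. KH.S1555.2 is on a published single-cell list of BTN genes, which the study used without it on the ground that its own dataset did not hold the gene. In the counts used here it was at 0.294 and 0.857 CPM in lacZ, 4.45 and 7.59 CPM in Neurog (77 and 120 counts) and 0 and 0.969 CPM in Neurog:WRPW. The gene model with the next number, KH.S1555.3, was likewise highest in Neurog and stood at 1.12 and 1.225 CPM in lacZ, 19.0 and 30.6 CPM in Neurog and 0.307 and 2.62 CPM in Neurog:WRPW, and was left out by the lacZ limit.

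KH.S2542.2, whose template is shown above, was at 0.648 and 0.735 CPM in lacZ, 4.80 and 10.9 CPM in Neurog and 0.409 and 1.07 CPM in Neurog:WRPW. KH.S2542.1, whose template is written on the opposite strand, was at 1.82 and 1.51, 11.1 and 49.7, and 0.664 and 1.36 CPM in the same groups. The Neurog libraries were above the other 4 for both models, and both were higher in Neurog replicate 2 than in replicate 1. LogFC between Neurog and lacZ was 3.33 ± 0.79 (SE) for KH.S2542.2 and 4.02 ± 0.80 for KH.S2542.1. KH.S2542.1 and KH.S1555.3 were singled out after their values were seen.

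Similarity to human proteins was known for 5 members, and 21 of the 30 had no entry in the tables of gene names used here, which cover 1129 gene models. The roles given are those of the human proteins. The members were looked up in 8 lists of receptors, channels, transporters, transcription factors, peptides, release, signalling and adhesion genes. KH.C1.236 resembles the C-type lectins CD209, CLEC17A and CLEC4E, cell surface proteins that bind carbohydrates, and was the only member found in a list. The members whose values are not reported here were looked up without their human similarity, so their absence from the lists says nothing. Next are the values of KH.C1.236. This gene model was at 0.412 and 0.204 CPM in lacZ, 9.60 and 6.45 CPM in Neurog and 0.102 and 1.07 CPM in Neurog:WRPW. KH.S425.3 resembles the digestive serine proteases CTRB1, CTRB2 and CTRL, which cleave proteins in the gut lumen, and was at 0.765 and 0.735, 4.97 and 5.88, and 1.43 and 0.485 CPM. Their lacZ and Neurog:WRPW libraries overlapped, and the Neurog libraries lay above both groups. The lists hold 16 to 59 gene models each, and the 21 members without an entry could not be placed in any of them. The 4 with an entry but no human similarity could be placed only by a gene name.

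KH.C2.193, which resembles the WD-repeat proteins DCAF10 (a substrate receptor of a ubiquitin ligase), POC1A (a centriole protein) and SNRNP40 (a splicing factor), lay near the lower edge of the set. It was at 0.824 and 0.735 CPM in lacZ, 3.76 and 2.40 CPM in Neurog and 0.767 and 1.16 CPM in Neurog:WRPW. Its lacZ and Neurog:WRPW libraries overlapped, and both Neurog libraries were above them. LogFC between Neurog and lacZ was 1.85 ± 0.73 (SE).

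Among all 30, LogFC between Neurog and lacZ ran from 1.69 (KH.C3.679) to 7.72 (KH.C14.89) with a median of 3.10, against a median of -0.03 over the 12253 gene models tested. The lower Neurog library was 2.29 to 109.0 times the higher lacZ library, with a median of 5.68, where the rule alone requires more than 2. By mean Neurog CPM the members lay between percentiles 29.9 and 65.0 of all gene models, with a median of 37.2. They were thus of low to middle abundance even when raised. Their median length was 1247 bases, against 1648 bases for all gene models. A further 10 members had Neurog means of 2.86 to 4.73 CPM and LogFC of 2.08 to 3.72, and none of their lacZ libraries exceeded 0.824 CPM and none of their Neurog:WRPW libraries 0.869 CPM. The Neurog libraries did not order the members alike: 17 were higher in replicate 2, and for 7 the libraries differed by more than 2-fold, from KH.C10.102 (6.30 and 2.02 CPM) to KH.C8.471 (3.76 and 14.0 CPM).

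The Neurog:WRPW libraries were not used by the rule, although the lacZ libraries they are compared with were. Of the 30 members, 21 were under 1 CPM in both Neurog:WRPW libraries, where 90.4% of the 3033 gene models low in lacZ were, and none was at 2 CPM or more in both, where 0.0659% were. Against lacZ, both Neurog:WRPW libraries lay below both lacZ libraries for 5 members and above them for 5, while the groups overlapped for 20. Among low gene models with a lacZ count, 18.3% lay below, and among the 3033, 9.26% lay above. In Neurog:WRPW replicate 2 alone, 14 members were at 0 counts, against 1 in replicate 1. Replicate 2 is the shallowest library and was made from the fewest sorted cells. With replicate 1 alone, 25 of the 30 were under 1 CPM and 2 were at 2 CPM or more.

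**Figure D2:**
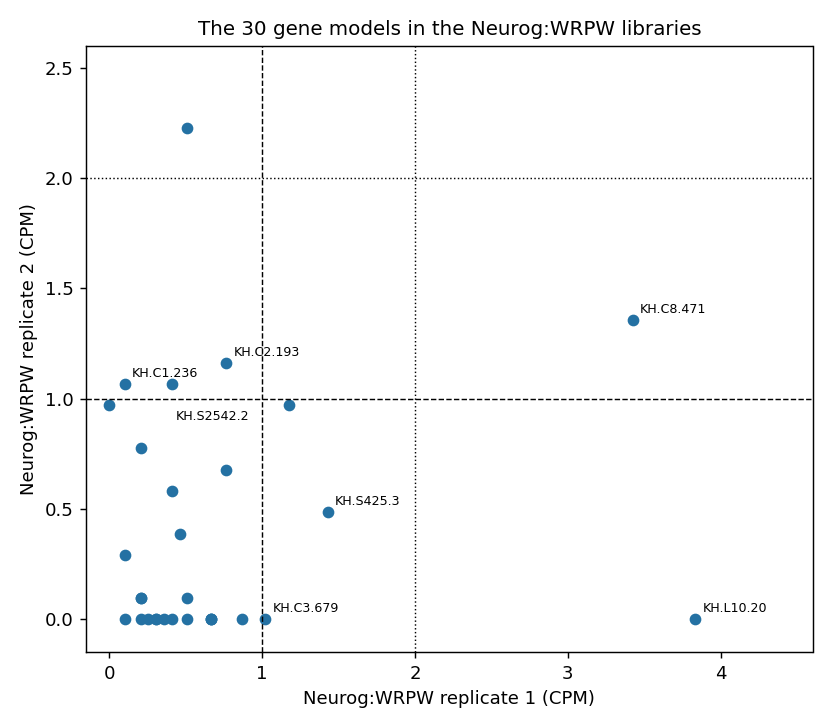
Each point is a member, placed by its CPM in Neurog:WRPW replicate 1 (x axis) and replicate 2 (y axis); dashed lines are at 1 CPM and dotted lines at 2 CPM. The lower left square holds the 21 members under 1 CPM in both libraries, and 9 lie outside it, most of them named.

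A Neurog:WRPW library was at 1 CPM or more for 9 of the 30 members and for 9.63% of the 3033 low gene models, which were also lower than the members in lacZ. KH.C8.471, whose probe was scored by the study as staining tissues other than the nervous system, had the highest Neurog:WRPW mean (2.39 CPM). It was at 0.235 and 0.612 CPM in lacZ, 3.76 and 14.0 CPM in Neurog and 3.42 and 1.36 CPM in Neurog:WRPW. Both Neurog:WRPW libraries were above both lacZ libraries and below both Neurog libraries. In the fit over all 12253 gene models it was the only member past an unadjusted p of 0.05 and a LogFC of 0.6 in either direction between Neurog:WRPW and lacZ (LogFC 2.51 ± 0.92 SE, edgeR quasi-likelihood unadjusted p = 0.0326, Benjamini-Hochberg adjusted p = 0.9999). The rule kept lacZ low in every member, so an upward call of a member was not independent of the rule. At these thresholds 0.318% of gene models were called up and 1.19% down, and after adjustment none was called in either direction (39 and 146 at the unadjusted thresholds; DESeq2 called 0 up and 4 down after adjustment). The KH.C8.471 call was lost without lacZ replicate 1 (LogFC 1.98) and without Neurog:WRPW replicate 1 (LogFC 1.78). Without Neurog:WRPW replicate 1, where replicate 2 stands alone with 14 members at 0, 2 members were called up and 9 down at the unadjusted thresholds, against 1.17% and 7.69% of the 12096 gene models then tested. Without Neurog:WRPW replicate 2, 2 were called up and 1 down, against 0.387% and 1.51% of 12152.

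For the other 8, a single Neurog:WRPW library was at 1 CPM or more. KH.L10.20 was at 75 counts (3.83 CPM) in replicate 1, above its 3.30 and 2.72 CPM in Neurog, and at 0 in replicate 2. The others included KH.C3.679 at 1.02 and 0 CPM, with KH.S425.3, KH.C2.193, KH.C1.236 and KH.S2542.2 at the values given above. Over the members LogFC between Neurog:WRPW and lacZ was above 0 for 15 and below 0 for 15, from -2.05 (KH.C10.102) to 2.68 (KH.C11.90), with a median of -0.08 against -0.02 over all gene models tested. The standard errors ran from 0.70 to 1.69, so a difference of the size of several of these values was not detectable at this depth and replication.

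The same pair of limits was applied in each order of the 3 groups to place the count of 30. Only 4 gene models were under 1 CPM in both Neurog libraries and at 2 CPM or more in both lacZ libraries (0.134% of those low in Neurog). Low in lacZ and raised in Neurog:WRPW were 2 (0.0659% of those low in lacZ). The largest count was 62, for gene models low in Neurog:WRPW and raised in Neurog (1.915% of those low in Neurog:WRPW). By the rule, the members among these 62 are the 21 of the 30 under 1 CPM in both Neurog:WRPW libraries. In the opposite order, 11 were low in Neurog and raised in Neurog:WRPW (0.369%). The last order gave 7 gene models low in Neurog:WRPW and raised in lacZ (0.216%). The Neurog:WRPW limit includes replicate 2, made from the fewest sorted cells. These counts share libraries with each other and were not tested against each other.

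**Figure D3:**
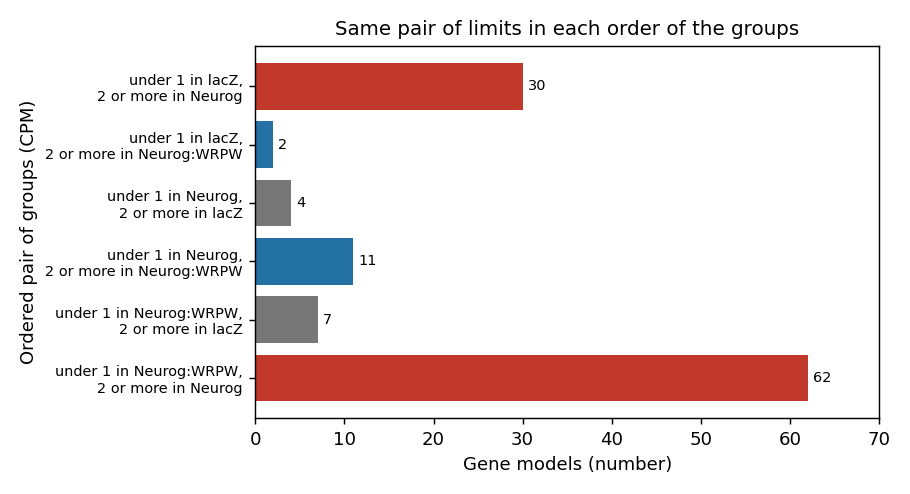
Number of gene models (x axis) under 1 CPM in both libraries of the first group and at 2 CPM or more in both libraries of the second (y axis), for each order of the groups. The bars for Neurog as the raised group, 30 and 62, are longer than the other 4, which run from 2 to 11.

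To read the difference in libraries that had not chosen the genes, the limits were applied to 1 replicate number and the values were taken from the other. Replicate 1 alone chose 141 gene models. In replicate 2, 100 of these (70.9%) were higher in Neurog than in lacZ, against 48.2% of the 3314 gene models under 1 CPM in lacZ replicate 1, and 39.0% were at 2 CPM or more in Neurog, against 4.13%. Their medians there were 1.52 CPM in Neurog and 0.653 CPM in lacZ, where the 3314 had medians of 0.190 and 0.163 CPM. The background was thus lower and not matched in level, and equal values counted as not higher. Replicate 2 alone chose 192, of which 142 (74.0%) were higher in Neurog in replicate 1, against 40.4% of 3922. The medians in Neurog and lacZ were 3.29 and 1.59 CPM for the 192 and 0.289 and 0.353 CPM for the 3922. Only 30 of the 141 and 30 of the 192 met both limits again, and by the rule these are the 30 members in both cases. The reading is a description and not a test of the members. For 46 of the 141 and 131 of the 192 the lacZ library of the other replicate was at 1 CPM or more. The same reading for Neurog:WRPW gave 22.4% higher than lacZ of 49 chosen in replicate 1 (background 26.9%) and 45.6% of 103 chosen in replicate 2 (background 38.9%).

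**Figure D4:**
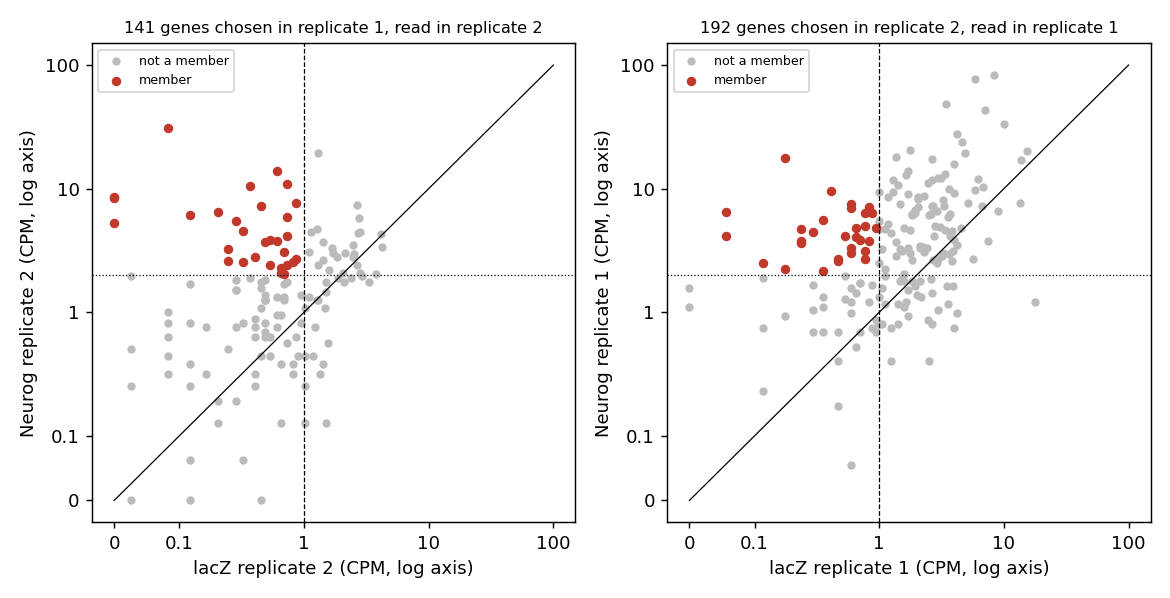
CPM in lacZ (x axis) and Neurog (y axis), both on log axes with 0 at the edge, of genes chosen in replicate 1 and read in replicate 2 (left, 141 genes) and the reverse (right, 192 genes); the diagonal marks equal values and the dashed and dotted lines the limits of 1 and 2 CPM. Members (red) fill the upper left corner by the rule, and most of the other chosen genes (grey) lie above the diagonal but miss a limit.

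The size of the set follows its limits closely. Just inside the lacZ limit were KH.C8.42 (0.942 and 0.327 CPM in lacZ, 4.80 and 2.53 CPM in Neurog) and KH.C10.102 (0.883 and 0.694, 6.30 and 2.02 CPM). Just outside it were KH.C5.614, which the study named Nmur after a neuropeptide receptor family (1.00 and 0.980, 9.37 and 3.73 CPM), and KH.L18.31, which resembles kelch-like proteins (1.00 and 0.327, 2.49 and 2.97 CPM). KH.C10.102 was also the closest to the Neurog limit from inside, at 2.02 CPM in the lower library. KH.C9.610, similar to adhesion G protein-coupled receptors (1.97 and 5.69 CPM in Neurog), and the unnamed KH.C3.660 (2.54 and 1.96 CPM) fell just short of it. A lacZ limit of 0.5 CPM left 9 members and a limit of 2 CPM gave 112. Asking for the lacZ limit in replicate 2 only gave 126 and in replicate 1 only 55, and asking for the Neurog limit in replicate 2 only gave 61 and in replicate 1 only 95, all of them including the 30.

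Summed over each list, markers of other cells were higher in Neurog and lower in Neurog:WRPW than in lacZ. Single genes of the lists were not examined, and a few of them can make up most of a sum. The 15 genes that the study's probes placed elsewhere in the nervous system summed to 494.7 and 437.1 CPM in lacZ, 1880.3 and 1755.6 CPM in Neurog and 247.7 and 219.4 CPM in Neurog:WRPW. The 11 genes placed in other tissues, with the members KH.C8.471 and KH.S2542.2 left out, summed to 290.0 and 228.9, 746.8 and 691.0, and 135.0 and 100.6 CPM. None of these genes was at 0 in all libraries, and the study had picked its probes on the same comparison, so the lists are not independent of it. Their part in the members' values was not tested.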

How the data were processed

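RNA from cells sorted at 9.5 hpf was amplified and sequenced as 6 libraries (SMART-seq v4). The deposited table holds whole-number counts per KH2013 gene model, which the authors made by aligning reads with STAR 2.5.2b and counting them with featureCounts over exons, with duplicate reads left out and no normalization; 15232 gene models were kept and no row was left out of the totals. CPM here is each count per 1000000 of its column total, without further scaling. Neurog:WRPW and lacZ were compared with edgeR 4.0.16 in R 4.3.3 (TMM scaling, quasi-likelihood test, all 6 libraries sharing one estimate of spread, biological coefficient of variation 0.421, two-sided, Benjamini-Hochberg adjustment) over the 12253 gene models above 1 CPM in at least 2 libraries. The fit was tested on simulated data with less spread than measured here. Changes were placed only in genes of a higher mean level than most members, so the fit was not tested at the members' level. DESeq2 1.42.0, other scalings, filters, limits, a replicate block and leaving out each library were tried as alternatives.

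The members and the gene lists were chosen with earlier results of these data known. All 30 members passed the filter on low counts through the Neurog libraries, where they are high by the rule. Only KH.C8.471 was also above 1 CPM in both Neurog:WRPW libraries (3.42 and 1.36 CPM). Members were named in the text when they had a probe, a human counterpart, one of the highest levels in a group, a level next to a limit, or a call in the Neurog:WRPW comparison; the values of 2 members that meet these terms are not reported here. The p-values measure only the spread between these libraries, and intervals cover counting error only, since reads left after removal of duplicates need not be independent molecules. Probe sequences came from the study's supplementary probe table, where each is held for its first 399 bases. RefSeq's gene table for Ciona shared no identifier with the KH models, so no promoter, protein or genome position is given.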

Additional observations from a re-analysis of the deposited data

How the results depend on the processing

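The set kept its size when CPM was rescaled: 31 gene models met the rule on TMM-scaled library sizes, 28 of them members, and 30 by DESeq2 size factors, 27 of them members. It moved with the limits. A lacZ limit of 0.5 CPM gave 9 members, 8 of them under 1 CPM in both Neurog:WRPW libraries and 0 at 2 CPM or more in both, and a limit of 2 CPM gave 112, 36 and 4. A Neurog limit of 4 CPM gave 11, 8 and 0, and a limit of 1 CPM gave 115, 73 and 0. Leaving out each lacZ or Neurog library gave 55 to 126 members. Over these and the omission of each Neurog:WRPW library, 24 to 64 were under 1 CPM and 0 to 5 at 2 CPM or more in Neurog:WRPW.

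Between Neurog:WRPW and lacZ, where 39 gene models were called up and 146 down at the unadjusted thresholds, omitting 1 library at a time gave 31 to 141 up, 75 to 930 down and 1 to 11 members, the highest values each without Neurog:WRPW replicate 1. That omission leaves 1 library in the group, which is then assumed to vary like the others. Its calls of members were not read as a result, since the members passed the filter on low counts through the Neurog libraries. With only the lacZ and Neurog:WRPW libraries in the fit, 97 were called down. The other alternatives kept the count of 1 member. With the replicate number as a block, 142 were called up and 435 down, again with 1 member. Deviations of same-numbered libraries from their group means had correlations of 0.566 to 0.625 across 7982 genes, which are not independent. Same-numbered libraries thus deviated together, a hint from the data and not from the design, since neither the labels nor the methods name a shared batch, and they were not fitted as pairs above. The LogFC of the members between Neurog and lacZ, whose sign the rule fixes, differed by more than 1 SE from the value given in 6 of 258 cases. Without either Neurog library, 21 members fell under the filter on low counts, since their level rests on that group.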
